A study of Mus musculus with 6 samples.

Results

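The genes described here are 10 genes of fatty acid synthesis in the mouse liver: Srebf1, Thrsp, Acly, Me1, Acaca, Acacb, Fasn, Elovl6, Scd1 and Gpam. They were named for their role in the pathway, and a probe belonged to a gene where the array design gave it that gene's name. Of the 10 genes, 9 were found under their own names, with 15 probes. Me1 was found under its older name Mod1, with 2 probes, which gave 17 of the 41174 probes on the array. The livers came from male 129/Sv mice that were 6 to 8 weeks old when treatment began. Alcohol-treated mice drank a Lieber-DeCarli liquid diet with 4% ethanol, and control mice drank an isocaloric diet with maltose dextran in its place. All mice had first been kept on the control liquid diet. RNA of 6 mice per arm was pooled after 1, 2 and 4 months, and each month's pair of pools was hybridized on 2 arrays with the dyes exchanged, alcohol being in Cy5 on the first array and in Cy3 on the second. The 2 arrays of a month hold the same RNA, so that there was 1 pair of pools per month, no value for single mice, and no test within a month.

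De novo lipogenesis turns surplus carbohydrate into fat. Citrate leaves the mitochondria and is split to acetyl-CoA, which is carboxylated to malonyl-CoA and joined by fatty acid synthase into palmitate with the help of NADPH. Palmitate is then lengthened, desaturated and bound to glycerol. In the liver the genes of these steps are induced together after feeding by insulin, through the transcription factor SREBP-1c, and by glucose, through ChREBP. They are known as a group that responds to diet, fasting and alcohol.

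RefSeq promoter windows are shown for the genes with the largest monthly differences, Fasn, Thrsp and Acly, and for Acacb, which stood on the other side of 0 at 2 months. Each window holds the 250 bases before a RefSeq transcription start, written 5′ to 3′ on the strand of the gene in the build GRCm38.p6. Fasn lies on the minus strand at chr11:120824548-120824797, Thrsp on the minus strand at chr7:97417551-97417800, Acly on the minus strand at chr11:100528001-100528250 and Acacb on the plus strand at chr5:114165268-114165517. The Acacb window lies well inside the span of its gene, chr5:114146321-114250761, so it stands before a start downstream of the outermost one. The Fasn window also lies inside the span of its gene, chr11:120805958-120825166, near the end where transcription begins. The Thrsp and Acly windows lie just outside their genes. Capitals mark a CCAAT box (CCAAT or ATTGG) or a GC box (GGGCGG or CCGCCC), searched on both strands.
Fasn: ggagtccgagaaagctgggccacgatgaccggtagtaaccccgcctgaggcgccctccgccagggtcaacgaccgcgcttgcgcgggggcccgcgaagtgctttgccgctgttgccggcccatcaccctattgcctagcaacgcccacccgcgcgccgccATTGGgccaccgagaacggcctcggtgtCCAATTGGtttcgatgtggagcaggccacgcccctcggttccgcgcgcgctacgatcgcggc
Thrsp: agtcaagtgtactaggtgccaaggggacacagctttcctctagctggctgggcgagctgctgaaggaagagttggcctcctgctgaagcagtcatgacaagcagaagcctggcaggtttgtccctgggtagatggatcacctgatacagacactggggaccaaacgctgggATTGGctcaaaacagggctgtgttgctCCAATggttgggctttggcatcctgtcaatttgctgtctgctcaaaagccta
Acly: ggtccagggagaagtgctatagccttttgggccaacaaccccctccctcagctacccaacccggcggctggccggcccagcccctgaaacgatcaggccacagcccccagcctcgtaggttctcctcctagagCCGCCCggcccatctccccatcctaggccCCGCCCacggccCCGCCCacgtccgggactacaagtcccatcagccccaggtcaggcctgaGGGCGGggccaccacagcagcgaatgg
Acacb: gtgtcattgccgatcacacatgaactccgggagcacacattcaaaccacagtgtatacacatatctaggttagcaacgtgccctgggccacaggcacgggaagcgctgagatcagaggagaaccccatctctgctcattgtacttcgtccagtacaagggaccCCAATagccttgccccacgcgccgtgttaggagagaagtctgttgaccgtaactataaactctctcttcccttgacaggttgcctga

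The Fasn window held CCAAT boxes at 90 and 62 bases before the start, the latter overlapping a further match on the other strand at 59, and the Thrsp window held them at 79 and 52 bases. Acacb had 1 CCAAT box, at 87 bases, and Acly had none but held 4 GC boxes. A CCAAT box was present in 7 of the 13 windows of the genes described here, which cover 9 of the 10 genes, and in 33.8% of all 32851 promoter windows of that length. At least 2 matches, as in Fasn and Thrsp, were found in 10.1% of all windows. A GC box was found in 5 of the 13 windows and in 32.7% of all windows. The sterol regulatory element TCACNCCAC and the E-box CACGTG, searched on both strands, were found in 0 of the 13 windows and in 1.05% and 6.02% of all windows. These letters are descriptions of the windows, and were not set against the ratios.

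At 1 month every one of the 10 genes had a mean ratio below control by its brightest probe, as did 49.1% of the 37922 probes tested. For Acaca this mean was -0.047, from arrays of opposite sign. The lowest of the 10 genes encode fatty acid synthase, ATP citrate lyase, the lipogenic protein Thrsp and malic enzyme. At 2 months the lowest genes were Thrsp, the regulator Srebf1 and the desaturase Scd1, while Fasn and Acly were closer to control. At 4 months the ratios lay around 0, the 2 arrays disagreed in sign for 7 of the 10 genes, and Gpam was the lowest. No difference over the 3 months passed the test across all probes, as given below. Ratios are given as the log2 of alcohol over control, so that -1 is a level of 1 part in 2 of the control pool. In bulk liver, fewer cells that express a gene and less RNA per cell cannot be told apart.

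The arrays of the 3 months were not equally repeatable. From 73.3% to 90.3% of spots on an array exceeded background clearly, by the scanner software's own rule, and precision is limited by there being 6 arrays. Over the 37922 probes that met this rule in some channel, the 2 arrays of a month gave opposite signs for 48.0%, 61.7% and 65.7% of probes in the order of the months. The 1-month arrays share a slide and the 2-month and 4-month arrays share another, so that a difference between 1 month and the later months and a difference between slides cannot be told apart. Of the hepatocyte list, 9 of 9 measured genes, among them Alb and Apob, were well above background in both pools in every month. Their median ratio was 0.077, -0.13 and 0.016 in the order of the months. At 1 month 1 of the 9 was past 1.5-fold, Apoa1, the main protein of high density lipoprotein, lower at -0.61, with 0.26 and -1.47 on its 2 arrays. At 4 months 1 was, Alb, the gene of serum albumin, higher at 0.59. The Apoa1 arrays also disagreed at 4 months, with 1.23 and -1.34.

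Of the 10 genes, each read from its brightest probe, 4 were at least 1.5-fold lower in the alcohol pool at 1 month (Thrsp, Acly, Me1 and Fasn), where 0.649% of all probes tested were. At 2 months 3 were (Srebf1, Thrsp and Scd1), against 1.47% of all probes, and at 4 months 1 was (Gpam), against 1.61%. None was at least 1.5-fold higher in any month, where 0.609%, 1.39% and 2.52% of all probes were. A ratio below 0 on both arrays was found for 9 of the 10 genes at 1 month, 5 at 2 months and 2 at 4 months, against 23.8%, 17.6% and 17.5% of all probes. A ratio above 0 on both was found for 0, 1 and 1 of them, against 22%, 17.5% and 14.8%. At least 2-fold lower were 2, 1 and 0 of the 10 genes, against 0.0949%, 0.182% and 0.338% of all probes. The median ratio of the 10 genes was -0.53, -0.20 and -0.0083 in the 3 months, beside medians of 0, 0.0091 and -0.0086 over all probes. The share of genes below control was thus far above that of the array at 1 month and close to the rest by 4 months. The 2-month and 4-month counts depend on which array is read. With the array that has alcohol in Cy5 alone, 5 genes were 1.5-fold lower at 2 months. At 4 months either array alone gave 2 genes lower and 2 higher. On each of its 2 arrays a 1.5-fold lower level was reached by 4, 2 and 0 genes in the 3 months, against 0.285%, 0.44% and 0.675% of all probes.

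**Figure D1:**
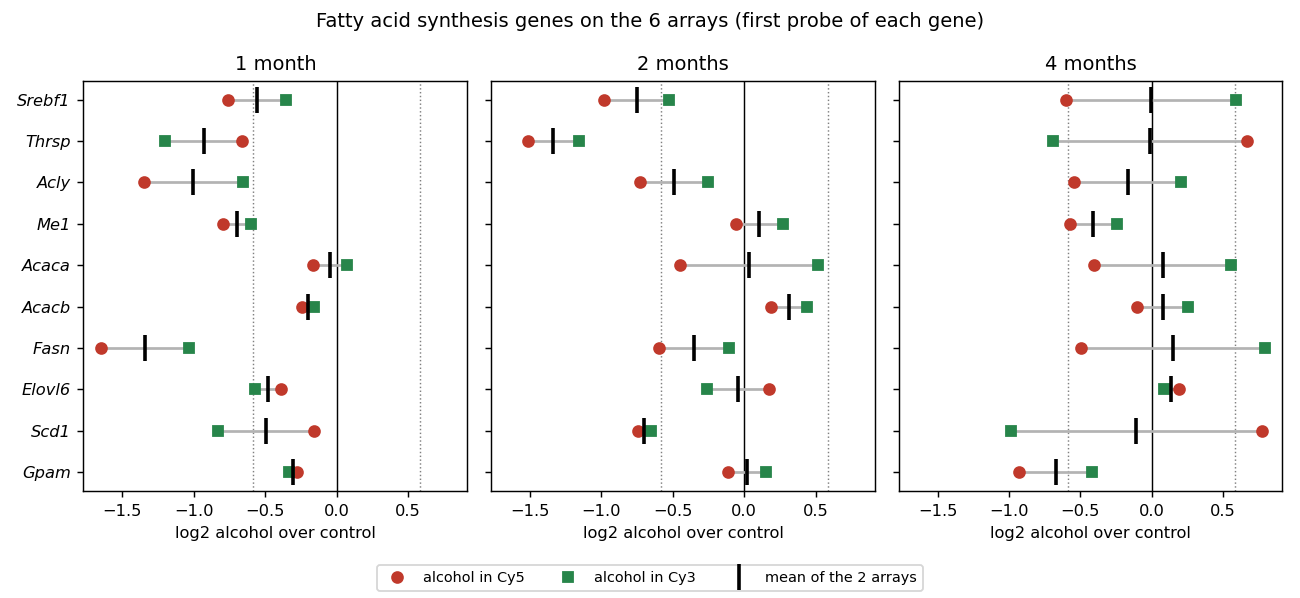
Log2 ratio of alcohol over control (horizontal axis) for the brightest probe of each of the 10 genes (vertical axis) at 1, 2 and 4 months; circles are the array with alcohol in Cy5, squares the array with alcohol in Cy3, black ticks their mean, and dotted lines mark 1.5-fold. At 1 month both arrays lie below 0 for 9 of the 10 genes, and at 4 months the 2 arrays lie on opposite sides of 0 for 7 genes.

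The regulators are Srebf1, which encodes the SREBP-1 transcription factors, and Thrsp, a small nuclear protein of lipogenic tissue that is induced by thyroid hormone and carbohydrate. For Srebf1 (probe A_51_P401921) the 1-month ratio was -0.76 where alcohol was in Cy5 and -0.36 where it was in Cy3. At 2 months these values were -0.98 and -0.53. At 4 months they were -0.60 and 0.59. The alcohol pool was thus lower on all 4 arrays of the first 2 months, by 1.47-fold and 1.69-fold on average, and the 4-month arrays disagreed by more than the size of either earlier difference. The array's annotation does not say which of the SREBP-1a and SREBP-1c transcripts the probe reads.

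Thrsp (A_51_P194099) gave -0.66 and -1.20 at 1 month, in the same order of dyes. At 2 months the values were -1.51 and -1.16, which was the largest mean difference of any of the 10 genes in that month. At 4 months they were 0.67 and -0.69. Thrsp was therefore 1.91-fold lower at 1 month and 2.53-fold lower at 2 months, and the 4-month mean of -0.012 rests on arrays of opposite sign. Its sign at 4 months ran against the dye in the other direction from Srebf1, since Thrsp was higher in alcohol where alcohol was in Cy5 and Srebf1 where it was in Cy3.

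Acly and Me1 supply the precursors. ATP citrate lyase, the product of Acly, makes cytosolic acetyl-CoA, and cytosolic malic enzyme, the product of Me1, makes NADPH. The bright Acly probe (A_51_P261718) gave -1.35 and -0.66 at 1 month, a level 2.01-fold lower. Its 2-month arrays gave -0.73 and -0.25, and its 4-month arrays -0.54 and 0.21. The mean thus lay at -0.49 and -0.17 in the later months. The 4-month value carries a limit. On the array with alcohol in Cy5 that spot differed from the other array of the same RNA by -6.06 in the alcohol channel and -5.31 in the control channel on the log2 scale, a gap of over 3 in both channels that 259 of the probes tested (0.683%) showed at 4 months, 84 at 1 month and 29 at 2 months. Without that array the 4-month ratio of Acly is 0.21. A second Acly probe did not clear background on any array of 1 month and has no usable ratio there.

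Both Me1 probes gave one course of ratios. The brighter (A_51_P186601) gave -0.80 and -0.60 at 1 month, then -0.060 and 0.27, and last -0.58 and -0.24. The dimmer (A_51_P266861) gave means of -0.93, 0.16 and -0.53. Malic enzyme was thus lower in alcohol at 1 month on all 4 spots, near control at 2 months and lower again on all 4 spots at 4 months, by 1.33-fold and 1.44-fold.

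Chain synthesis rests on the acetyl-CoA carboxylases, encoded by Acaca in the cytosol and Acacb at the mitochondrial surface, and on fatty acid synthase. Fasn had the lowest ratio of the 10 genes at 1 month, -1.65 and -1.03 on the brighter probe (A_51_P321126), a 2.53-fold lower level. Its 2-month values were -0.60 and -0.11, and its 4-month values -0.49 and 0.79. The second Fasn probe (A_52_P100252) gave -1.36 and -1.19 at 1 month, then -0.10 and -0.20, and last -0.28 and 0.26. Both probes therefore placed the large difference at 1 month, with later means from -0.35 to 0.15.

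The 4 Acaca probes did not give one answer. The brightest (A_52_P595124) gave -0.17 and 0.075 at 1 month, a mean of -0.047. The other 3 gave means of -0.58, -0.70 and -0.69 in that month, each below 0 on both arrays and with SDs between the arrays of 0.031 to 0.15. Acetyl-CoA carboxylase 1 was therefore at 0.614 to 0.667 of its control level by 3 of its 4 probes and unlike them by the probe that the count of 10 genes uses. At 2 months the 4 means ranged from -0.41 to 0.031 and at 4 months from 0.069 to 0.66. The highest of these, from the dimmest probe (A_52_P318040), was 0.88 and 0.43 on the 2 arrays.

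Acacb, whose product makes the malonyl-CoA that holds back fatty acid entry into mitochondria, lay on different sides of 0 in the first 2 months. Its first probe (A_52_P340167) gave -0.24 and -0.16 at 1 month and, a month later, 0.19 and 0.44. Its second probe (A_51_P239236) gave -0.54 and -0.37, then 0.62 and 0.52. By 4 months the means were 0.076 and 0.0067. In both probes each array of 2 months was above 0 and each array of 1 month below it. Acacb was the only one of the 10 genes above control on both arrays at 2 months.

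**Figure D2:**
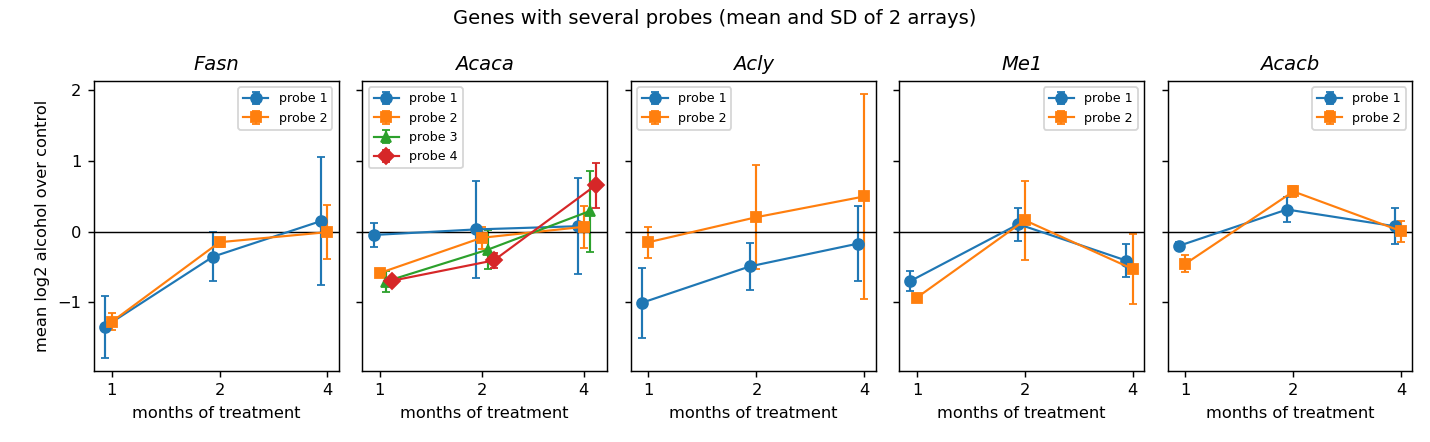
Mean log2 ratio of alcohol over control (vertical axis) by month (horizontal axis) for each probe of the 5 genes with more than 1 probe; bars are the SD of the 2 arrays. The 2 Fasn probes and the 2 Me1 probes follow each other, the brightest Acaca probe stays at -0.047 at 1 month while the other 3 lie at -0.58 to -0.70, and the second Acly probe did not clear background at 1 month.

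Elovl6 and Scd1 finish the chain, the first by lengthening palmitate and the second by placing the double bond that makes palmitoleate and oleate. Elovl6 (A_51_P463440) gave -0.39 and -0.57 at 1 month, then 0.17 and -0.26, and last 0.19 and 0.083. By the brightest probes it was the only gene of the 10 above 0 on both 4-month arrays; the dimmest Acaca probe was too. Scd1 (A_52_P682382) gave -0.16 and -0.83 at 1 month and -0.75 and -0.65 at 2 months, while its 4-month arrays gave 0.77 and -0.99. The 2-month value of Scd1, 1.62-fold lower, had the closest arrays among the brightest probes in that month (SD 0.066). The 4-month arrays of Scd1 were the farthest apart among the brightest probes of the 10 genes (SD 1.25).

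Gpam encodes the mitochondrial glycerol-3-phosphate acyltransferase that starts triglyceride assembly. Its ratio (A_52_P11388) was -0.28 and -0.34 at 1 month and -0.12 and 0.15 at 2 months. The 4-month arrays gave -0.93 and -0.42. Gpam was the only gene of the 10 whose lowest mean, -0.67, came at 4 months, and there its 2 arrays had the same sign.

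Over the 3 months, limma, which fits a mean and a slope to the 3 monthly values and borrows the spread across probes, called 0 of 37922 probes after Benjamini-Hochberg adjustment, for the mean and for the slope (lowest adjusted p 0.106 and 0.616). At an unadjusted p under 0.05 it gave 3028 probes (7.98%) for the mean and 2813 (7.42%) for the slope. Of the 10 genes, 4 had an unadjusted p that low for the mean. Thrsp had a mean of -0.76 (95% interval -1.43 to -0.085). Acly had -0.55 (95% interval -0.99 to -0.12) and Srebf1 -0.44 (95% interval -0.85 to -0.034). Scd1 had -0.43 (95% interval -0.76 to -0.11). Each was below 0 on 5 of the 6 arrays, and the limma adjusted p of all 4 was 0.620. These intervals rest on the spread borrowed across probes. Without that borrowing (no moderation), the limma fit gave unadjusted p of 0.19 for Thrsp, 0.15 for Acly, 0.19 for Srebf1 and 0.13 for Scd1. Probes with an unadjusted p under 0.05 and a mean below 0 made up 4.44% of all probes.

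For the slope per doubling of treatment time, Fasn had 0.75 (SE 0.105, 95% interval 0.46 to 1.03, limma adjusted p = 0.616), Acly 0.42 (SE 0.0837, limma adjusted p = 0.627) and Elovl6 0.31 (SE 0.0869, limma adjusted p = 0.638). These 3 of the 10 genes had an unadjusted p under 0.05, against 4.28% of all probes with such a p and a positive slope. Without moderation the unadjusted p of the limma slope was 0.12 for Fasn, 0.084 for Acly and 0.15 for Elovl6. A positive slope is a ratio that was higher in later months. The brightest Acaca probe had a slope of 0.062, and the other 3 had slopes of 0.33, 0.50 and 0.68. With normexp background correction and loess in place of the scanner's processing, the Fasn slope of 0.74 had a limma adjusted p of 0.0378, 1 of 50 probes called in that setting. For Acaca and Acacb the 95% intervals of the mean were -0.14 to 0.18 and -0.23 to 0.35, which leave room for a difference of either sign. A slope over 3 months leaves 1 residual degree of freedom, and it runs with the slides.

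**Figure D3:**
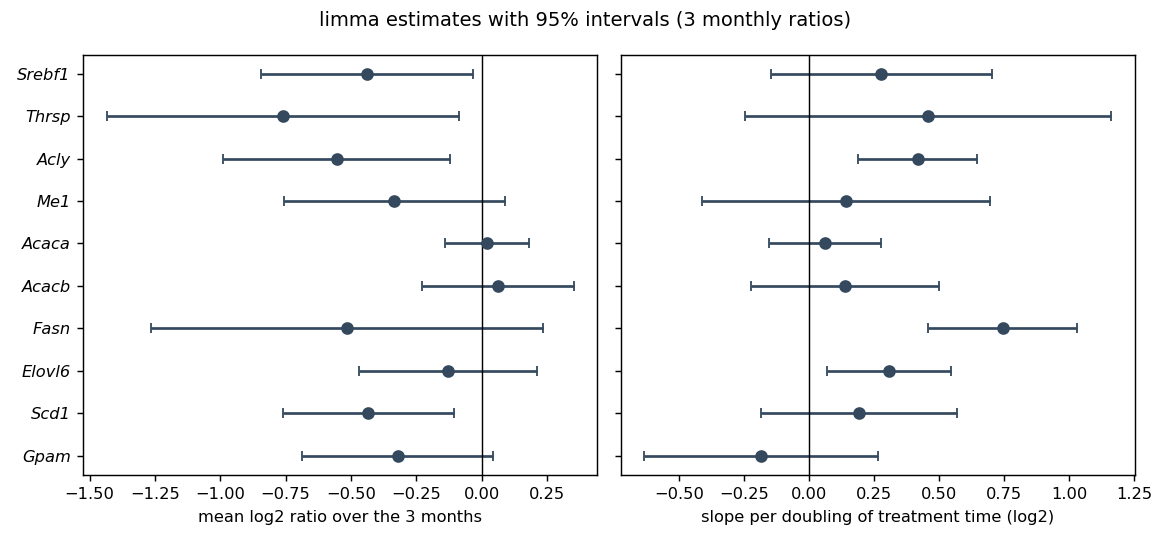
limma estimates for the brightest probe of each gene with 95% intervals as bars: the mean log2 ratio over the 3 months (left) and the slope per doubling of treatment time (right). The intervals of Srebf1, Thrsp, Acly and Scd1 lie below 0 for the mean and those of Acly, Fasn and Elovl6 above 0 for the slope, and none passes the adjustment over all probes.

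The pool levels, as the log2 signal of a channel over the 75th percentile of that channel, are given for each pool beside the ratios. In the order of the months, the control level of Fasn was 5.24, 2.30 and 3.79. The alcohol level was 3.90, 1.94 and 3.94. The control pool was thus 2.94 lower at 2 months than at 1 month, a step larger than any alcohol ratio of the gene. The control level of Srebf1 went from 4.61 to 2.70 and 3.43, beside alcohol levels of 4.06, 1.94 and 3.43. That of Me1 went from 2.77 to 0.47 and 1.11, beside 2.07, 0.57 and 0.71. The second Me1 probe had control levels of 0.67, -0.31 and 0.30, beside alcohol levels of -0.25, -0.15 and -0.23 that changed little. By the brightest probes the control pool of 1 month had the highest mean of the 6 pools for 8 of the 10 genes, and for 9 with loess and Aquantile normalization. Acaca changed with that scaling, and for Acaca and Acacb it also depended on the probe.

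The control level of Thrsp was 5.88, 5.34 and 4.52, and its alcohol level 4.95, 3.99 and 4.51, so that both pools met at 4 months. The control level of Scd1 was 4.58, 4.30 and 3.95, beside 4.09, 3.60 and 3.84. The 2 Acacb probes did not give one course. The first had control levels of 1.66, 2.07 and 2.85 and alcohol levels of 1.46, 2.38 and 2.93. The second had control levels of 0.30, -0.75 and 0.20 and alcohol levels of -0.15, -0.19 and 0.21. Steps between months cross from one slide to another between 1 and 2 months, and with 1 control pool per month they have no test. With loess and Aquantile normalization the 2-month step of the Fasn control level was -3.08, that of the first Acacb probe 0.046 in place of 0.41, and the 4-month step of the Thrsp alcohol level against 1 month turned from -0.44 to 0.23. The same step of the Thrsp control level went from -1.36 to -0.70. The steps of both Acaca pools and of the Elovl6 alcohol pool turned from above to below 0. Of the 40 steps from 1 month, 17 moved by more than the spread of the arrays, so the courses depend on the scaling.

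**Figure D4:**
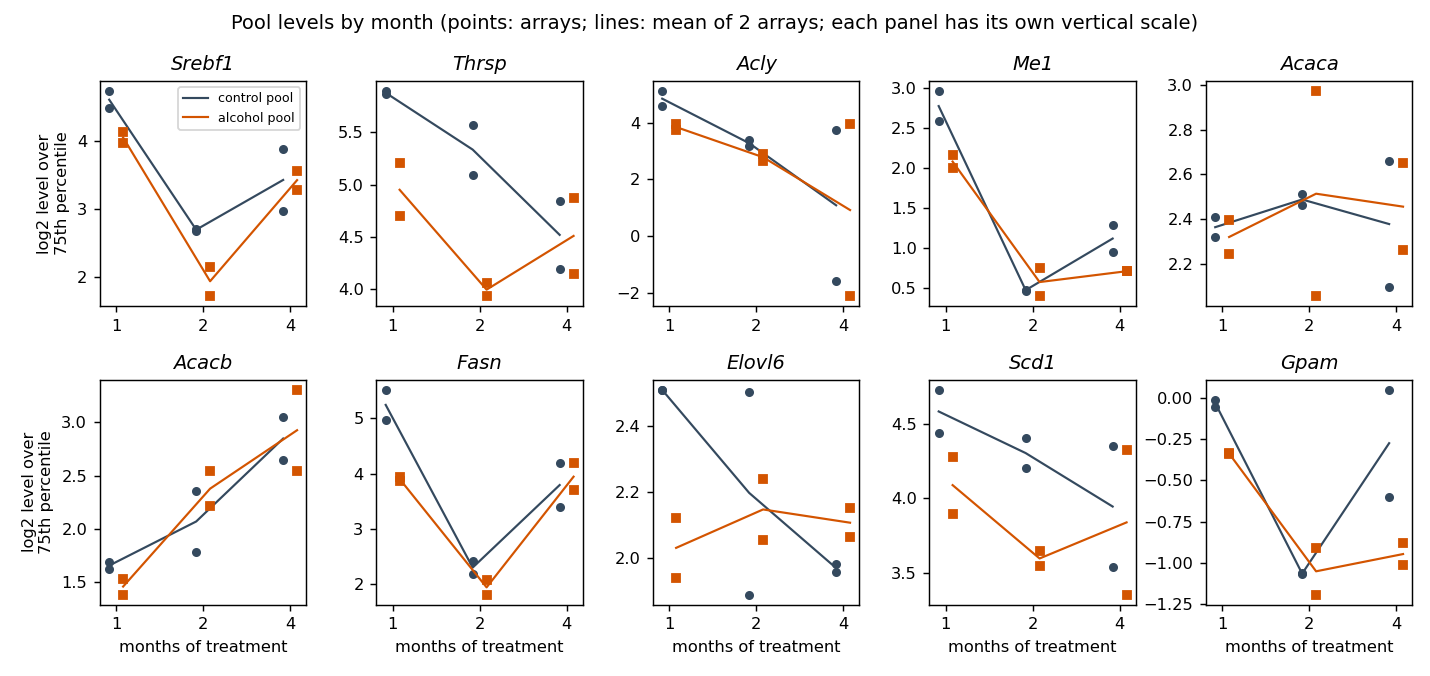
Level of the brightest probe of each gene in the control and alcohol pools (log2 signal over the 75th percentile of the channel, vertical axis, own scale in each panel) by month (horizontal axis); points are the 2 arrays and lines their mean. On this scale the control pool of 1 month has the highest mean for 8 of the 10 genes, and the 2 arrays of 4 months for Acly differ by over 5 in both pools.

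Among genes that act beside the 10, none passed the limma test either. Of 23 regulators measured, 1 was at least 1.5-fold lower at 1 month. This was Pklr, the liver pyruvate kinase and a classic ChREBP target, with -1.41 and -0.90 at 1 month. Its ratio was -0.81 and -0.0075 at 2 months, and -1.18 and 0.058 at 4 months. Over the months it had a mean of -0.71 (SE 0.158, limma adjusted p = 0.620). Mlxipl, which encodes ChREBP, gave means of 0.0097, -0.18 and 0.12. Nr1h3, which encodes LXR-alpha, gave 0.035, -0.11 and -0.079. Both of these regulators stayed under 1.5-fold in every month.

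The INSIG proteins hold SREBP in the endoplasmic reticulum. Insig2 gave 0.84 and 1.66 at 2 months, a mean of 1.25, after 0.044 at 1 month and before 0.35 at 4 months, and a second probe gave 1.09 at 2 months. A remaining, dim probe gave 0.045. Insig1, itself an SREBP target, gave -0.16, 0.43 and -0.72, with the 4-month arrays at -1.51 and 0.079. A second Insig1 probe gave -0.0036, 0.50 and -0.72, with the 4-month arrays at -1.05 and -0.39.

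Mid1ip1, the paralogue of Thrsp that promotes polymerization of acetyl-CoA carboxylase, was below 0 on all 6 arrays, with means of -0.67, -0.49 and -0.25 (mean over the months -0.47, SE 0.0976, limma adjusted p = 0.620). It was the gene of its list of 7 that was 1.5-fold lower at 1 month.

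The supply of citrate and NADPH apart from Acly and Me1 showed little. Of 12 genes measured, 0 were past 1.5-fold in any month, and their medians were -0.044, -0.074 and -0.039. Acss2, which makes acetyl-CoA from acetate, a product of ethanol, gave means of -0.074, -0.22 and -0.094 on its brightest probe, while its second probe gave -0.93 at 2 months.

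Of 14 further genes of elongation and desaturation, 0 were past 1.5-fold at 1 and 2 months. At 4 months Scd2 was higher, with a mean of 1.40 (SD 0.14), while Elovl3 was lower, with -1.46 and -0.93. Elovl5 was lower too, with -1.07 and -0.70. Fads1 and Fads2, the desaturases of polyunsaturated fatty acids, gave means between -0.20 and 0.0054 in the 3 months.

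Of 15 glycerolipid genes, 1 was past 1.5-fold in each direction at 1 month (Gpat3 higher, Lpin1 lower), 1 was higher at 2 months (Lpin1) and 0 at 4 months. Lpin1, whose product makes diacylglycerol and also acts as a nuclear coactivator in fasting, gave -1.24 and -0.90 at 1 month but 1.07 and 1.88 at 2 months. The last arrays gave -0.13 and 1.24. All 4 Lpin1 probes had the same signs in the first 2 months. Gpat3, a glycerol-3-phosphate acyltransferase of the endoplasmic reticulum that the array lists under an older name, gave 0.93 and 0.87 at 1 month, with means of 0.21 and 0.50 later. Gpat3 stood above control where Gpam stood below it. Dgat2, which closes triglyceride synthesis, gave means from -0.17 to 0.083.

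Other targets of SREBP-1c and LXR stood near control. Of 9 measured, 1 was past 1.5-fold, the sterol transporter Abcg8 at 2 months (-0.95 and -0.32). Pnpla3, a lipid droplet protein under SREBP-1c, gave means of -0.13, 0.25 and 0.18. In the cholesterol branch, which SREBP-2 controls, the median of 10 genes was 0.16, 0.059 and -0.14. Msmo1 was the gene past 1.5-fold at 1 month, at 0.87, and Mvd was the gene past 1.5-fold at 4 months, at -0.76. At 1 month, when the fatty acid genes lay lowest, 0 of the 10 cholesterol genes were below 0 on both arrays, against 23.8% of all probes. A count of 0 among 10 genes is not far from that share.

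Genes of the fasting response, many of them held down by insulin, were also read. Their median over 12 genes was 0.10, 0.47 and 0.71, with 2, 6 and 7 genes at least 1.5-fold higher and 0 lower. Of all probes, 0.609%, 1.39% and 2.52% were at least 1.5-fold higher in these months, and 0.649%, 1.47% and 1.61% lower. The 2 fasting genes higher at 1 month were Cyp4a14 and Pdk4. Igfbp1, an insulin-repressed binding protein of the liver, gave -0.39 and -0.063 at 1 month. Its 2-month values were 1.72 and 2.23 and its 4-month values 2.58 and 2.90. Fgf21, a fasting hormone of the liver, gave means of -0.17, 1.85 and 0.78. Cyp4a14, a fatty acid hydroxylase under PPAR-alpha, was already at 2.44 at 1 month, then 1.81 and 1.17. Acot1, an acyl-CoA thioesterase, gave 0.28, 0.85 and 1.05. G6pc, which releases glucose, gave -0.50, 0.044 and 0.73, and Pck1, the entry to gluconeogenesis, -0.14, 0.25 and 0.47. Pdk4, which blocks pyruvate oxidation, gave 0.86 and 0.84 at 2 and 4 months; its control signal did not clear background on the arrays of 1 month. None of the 12 passed the limma adjustment.

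The synthesis genes had their lowest median at 1 month, when the fasting genes had a median of 0.10 and Cyp4a14 was at its highest ratio. In that month 6 of the 12 fasting genes were above 0 on both arrays, against 22% of all probes. Below 0 on both were 3 of them, against 23.8%. The fasting genes had their highest median at 4 months, when the synthesis genes lay around 0. This is a description of 3 pairs of pools on 2 slides, with no test of the difference.

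**Figure D5:**
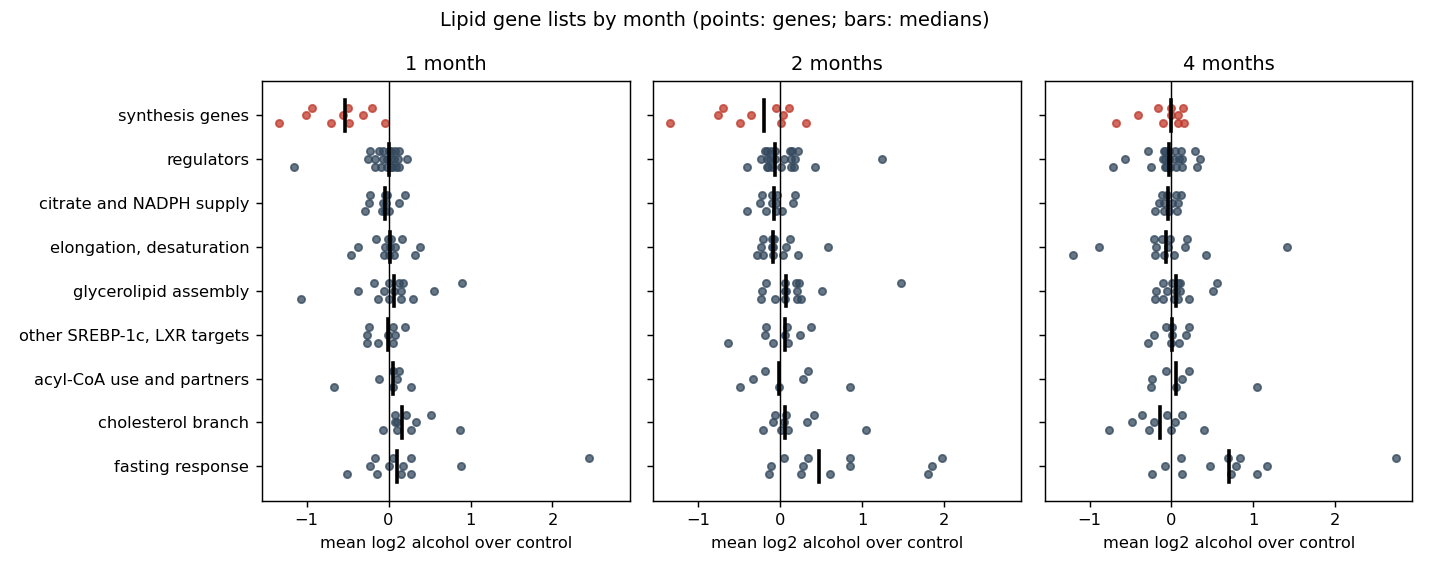
Mean log2 ratio of alcohol over control (horizontal axis) of the genes of each list (rows) at 1, 2 and 4 months; points are genes by their brightest probe and black bars are medians. The synthesis genes lie left of 0 at 1 month (median -0.53) and around 0 at 4 months, and the fasting genes lie right of 0 at 4 months (median 0.71).

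Markers of other tissues stood apart from control in some of these months, and their part in the results was not tested. At 1 month the hemoglobin genes Hba-a1 and Hbb-b1 were higher in the alcohol pool, at 1.51 and 1.97, and the summed level of the 6 blood markers was 6.46 in the alcohol pool and 4.83 in the control pool. Only those 2 of the 6 were past 1.5-fold in that month, and Epb42 did not clear background in either pool. At 2 months 1 blood marker was past 1.5-fold, Alas2, the heme synthesis enzyme of red cell precursors, at -0.75. At 4 months Alas2 was at -2.00 while Hba-a1 and Hbb-b1 were at 0.61 and 0.63. At 4 months 6 of 12 pancreas acinar markers were at least 1.5-fold higher, led by Cela2a at 3.75, with summed levels of 4.90 and 4.52. Of 9 adipose markers, which belong to another tissue that makes fatty acids, 0 were past 1.5-fold in any month. Adipoq gave means of -0.17, 0.044 and -0.13. Of 7 housekeeping genes, 0 were past 1.5-fold at 1 and 2 months, and their medians were -0.038, -0.089 and 0.033 in the 3 months.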

How the data were processed

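Scanner output of the 6 arrays from Agilent Feature Extraction 9.1.1.1 was deposited by the authors. Per the file headers, the signal intensity of each channel had its background subtracted and its dyes normalized by the authors' software. The output also gives a log10 ratio (Cy5 to Cy3) with an error. A deposited table of log10 ratios was an alternative. Ratios were turned to alcohol over control as log2 values, and the spots of a probe and the dye-swap pair were averaged. Levels are the log2 signal over the 75th percentile of the channel. The 3 monthly ratios of 37922 probes were tested with limma 3.58.1 (R 4.3.3), with Benjamini-Hochberg adjustment at 0.05; Python 3.11.15 and pandas 2.3.3 did the rest. The fits were tested on simulated data. The genes, lists and tests were chosen with earlier results of these data known. Named genes are the 10, the regulators and targets named in the rule, and in each list up to 6 genes past 1.5-fold with the same sign on both arrays of a month. Where a gene has several probes the brightest on average comes first. RefSeq names and windows are of GRCm38.p6; 22951 of 25510 probes with a RefSeq accession matched a current symbol. No p-value deposited by the authors was used. The p-values given measure the spread between 3 pairs of pools, not between mice. Alternatives were other background correction and dye normalization, the deposited table, error weights, each array alone, centring, probe rules, filters, thresholds, leaving out a month, no moderation and a linear time scale. Some genes that this rule names are not reported here.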

Additional observations from a re-analysis of the deposited data

Results flagged for a closer look

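Acaca, Acacb and Elovl6 had arrays that lay on one side of 0 in one month and on the other side in another. The dimmest Acaca probe was below 0 on both arrays at 1 and 2 months and above 0 on both at 4 months, with a mean ratio 1.35 higher on the log2 scale than at 1 month and 1.06 higher than at 2 months. On the 4-month array with alcohol in Cy5 this probe was 2.84 lower in the alcohol channel and 3.30 lower in the control channel than on the other array of the same RNA. Acacb was below 0 at 1 month and above 0 at 2 months on both arrays with both of its probes, which moved by 0.51 and 1.02. Elovl6 was below 0 at 1 month and above 0 at 4 months, a difference of 0.62. The differences of 4 months from 1 month, which the slope over the months measures, had limma adjusted p of 0.627 for the dimmest Acaca probe and 0.638 for Elovl6. The differences that involve 2 months were not tested. In each case the months lie on different slides or, for the Acaca comparison of 4 with 2 months, on one slide.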

How the results depend on the processing

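At a threshold of 2-fold the numbers of genes lower in alcohol were 2, 1 and 0 at 1, 2 and 4 months, and 0 at 4 months where 1.5-fold was asked of each array. With one array of each pair left out they were 5 at 1 month, 2 to 5 at 2 months and 2 at 4 months, with 2 higher at 4 months. Probes called for the mean numbered 9 with normexp and loess and 6 with only the 27900 probes that cleared background throughout. Probes called for the slope numbered 50 with normexp and loess and 1 without moderation. With the arrays of 1 dye orientation or of 1 month left out, the mean of Acaca ranged from -0.34 (without replicate 2, alcohol in Cy3) to 0.38 (without replicate 1, alcohol in Cy5), with -0.0078 without month 4, and it was -0.14 over its 4 probes. That of Acacb ranged from -0.062 (without month 2) to 0.19, with -0.053 without replicate 2, and that of Elovl6 from -0.26 to 0.045 (without month 1). The slope of Acaca ranged from -0.12 (without replicate 2) to 0.24 and that of Scd1 from -0.079 (without replicate 1) to 0.47. The cause was not tested. With the same arrays left out, the mean of Thrsp ranged from -1.13 to -0.47, that of Srebf1 from -0.78 to -0.097, that of Fasn from -0.91 to -0.10, that of Acly from -0.88 to -0.23 and that of Scd1 from -0.82 to -0.043. Averaged over all probes of a gene, the mean of Acly was -0.18 and its 1-month ratio -0.58, which left 3 genes lower at 1 month. That average takes in the second Acly probe, which did not clear background on any array of 1 month. With the same averaging, the monthly ratios were -0.51 for Acaca and -0.33 for Acacb at 1 month and -0.14 for Acly at 2 months. The other 119 values of the means, 102 of the slopes and 208 of the monthly ratios kept their direction and their side of the threshold, though not their size, or moved by less than the spread of the 2 arrays. A monthly ratio from 1 array always lies within that spread of the mean of both, so that setting could not count as moved. Scd1 at 4 months is among the 208 both at -0.99 and at 0.77, from its single arrays. The Acly value without the dim spot was chosen after seeing the data. A fit with the slide as a random block could not be fitted with 3 values. No paired analysis was possible because replicate numbers mark the dye orientation and each array already holds both pools. Without values for single mice, no difference here can be set against the variation between mice.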
